A study of Homo sapiens with 4 samples.

Results

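The genes described here are the receptors that hold an epithelial cell to its matrix and the proteins that tie them to actin: integrin α and β subunit genes, the hyaluronan receptor gene CD44, and the focal adhesion genes PXN and VCL. They were taken by gene symbol, as ITGA2, ITGA3, ITGA6, ITGAV, ITGB1, ITGB4, ITGB6, CD44, PXN and VCL. No measured value entered that rule, but the genes were chosen with earlier results of these data known. They are 10 of 27685 genes and 41 of 63714 transcripts in the tables. RNA-seq was performed in HT-29, a human colon cancer cell line, in 2 independent experiments. Each experiment held 1 library from cells with a control vector and 1 from cells that stably expressed TRIM40 with an N-terminal Myc tag (Myc-TRIM40), so there were 4 libraries in all. The labels call the control cells wild type and list no treatment for any library, and they do not say whether the stable cells were a clone or a pool. TRIM40 is a RING-type ubiquitin ligase, and the comparison asks how its forced expression changed the transcriptome of colonic epithelial cells.

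Integrins are heterodimers of an α and a β subunit, and the pair decides which matrix protein is bound. In epithelium, α6β4 sits in hemidesmosomes and links laminin to keratin filaments, whereas the β1 integrins sit in focal adhesions, where talin, vinculin and paxillin connect them to actin. CD44 binds hyaluronan outside the cell and ezrin, radixin and moesin inside it, and its RNA is spliced into forms with or without variable exons.

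Spliced forms differ in a short stretch of sequence, and those of CD44 and ITGA6 are shown here because the reads were divided among them. All 11 CD44 and ITGA6 transcripts of the tables were found by RefSeq accession in GENCODE release 29 (GRCh38), and each line gives the last 20 bases of the shared exon in lower case and the first 20 bases of the exon that follows in capitals, 5′ to 3′ on the plus strand. The shared CD44 exon ends at position 35190065 of chromosome 11 and lies in the coding part of the gene.
CD44 variant 1, NM_000610, next exon from position 35196746: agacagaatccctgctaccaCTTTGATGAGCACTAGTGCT
CD44 variant 2, NM_001001389, next exon from position 35198121: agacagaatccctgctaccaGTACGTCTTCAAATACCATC
CD44 variant 3, NM_001001390, next exon from position 35208105: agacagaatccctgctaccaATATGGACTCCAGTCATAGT
CD44 variant 4, NM_001001391, next exon from position 35214852: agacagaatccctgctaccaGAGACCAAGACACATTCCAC
Variant 4 is the standard form, which skips every variable exon and has 361 codons. Variant 3 is the epithelial form with 493 codons, and variants 2 and 1 take in more variable exons, with 699 and 742 codons. The ITGA6 transcripts part near the 3′ end of the coding sequence, after an exon that ends at position 172498100 of chromosome 2.
ITGA6 NM_000210, next exon from position 172501772: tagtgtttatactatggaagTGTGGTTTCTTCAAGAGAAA
ITGA6 NM_001079818, next exon from position 172504091: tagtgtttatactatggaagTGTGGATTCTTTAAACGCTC
NM_000210 takes in an exon of 130 bases and encodes the α6A cytoplasmic tail (1073 codons), whereas NM_001079818 skips it and encodes the α6B tail (1091 codons).

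The 4 libraries held between 60954602 and 67424698 estimated reads, of which the 10 genes took between 0.1996% and 0.2998%. TRIM40 was at 0 reads in both control libraries, which allows up to 3 reads, and had 272646 reads with Myc-TRIM40 in experiment 1 and 110665 in experiment 2. Of 9 colon epithelium markers, 7 stood at or above 1 FPKM in every library, the exceptions being CDH17 and CDX1, and the summed FPKM of the list was 6364 to 8960. The 5 fibroblast markers summed to at most 0.244 FPKM, with COL1A2, COL3A1 and DCN at 3 reads or fewer throughout. The 4 leukocyte markers summed to at most 2.61 FPKM, with CD3E at 3 reads or fewer, and the 3 endothelial markers to at most 0.134 FPKM, with CDH5 at 3 reads or fewer.

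None of the 10 genes passed the test between Myc-TRIM40 and control vector. With edgeR's quasi-likelihood test and Benjamini-Hochberg adjustment, 0 of 10 were called higher and 0 were called lower at an adjusted p of 0.05, 0 had an unadjusted p under 0.05, and the smallest unadjusted p was 0.121, for ITGB4. DESeq2 and limma also called 0 of 10, and each had 0 at an unadjusted p under 0.05. Over all 14868 genes tested, 0.0404% were called higher and 0.0202% lower, so few genes of any kind passed. All 10 genes passed the filter on low counts. The 95% intervals of the fold changes reached from a log2 value of -0.49 (ITGA2) to 0.91 (ITGB4), so changes inside them were not excluded. They are not limits of detection, because with 2 libraries per condition larger changes could also fail the test after adjustment. In a bulk library, fewer cells that express a gene and less RNA per cell cannot be told apart.

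The levels, given as FPKM (fragments scaled by transcript length and library total, summed per gene), set the 10 genes in an order that spans 21.3-fold. ITGB1 led at a mean of 146.6 FPKM, and it was followed by CD44 (90.7), ITGB4 (80.7), ITGA6 (62.0), ITGA3 (53.5), PXN (46.8), VCL (18.2), ITGAV (13.9), ITGB6 (6.91) and ITGA2 (6.89). Of the 9 pairs of neighbours in this order, 6 had overlapping ranges over the 4 libraries. ITGB1 stood above CD44, PXN above VCL and ITGAV above ITGB6 with no overlap. CD44 and ITGB4 changed places, with ITGB4 ahead in both libraries of experiment 1 and CD44 ahead in both of experiment 2. The control library of experiment 2 had the lowest level of the 4 libraries for 10 of the 10 genes.

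**Figure D1:**
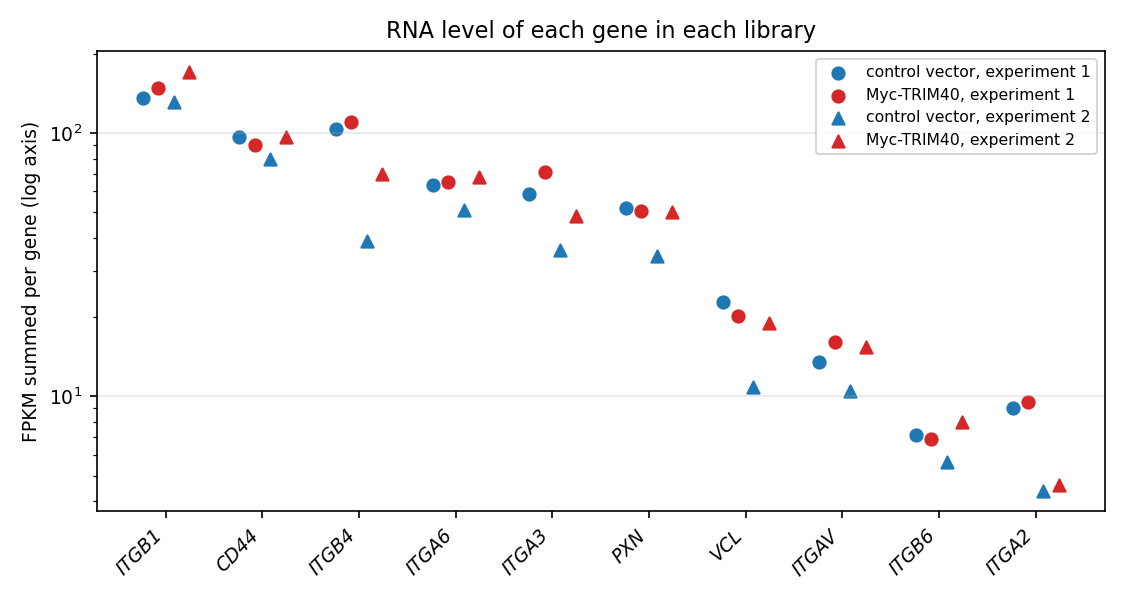
FPKM of each gene (log axis) in the 4 libraries, with control vector in blue, Myc-TRIM40 in red, experiment 1 as circles and experiment 2 as triangles, and genes ordered by their mean. ITGB1 was highest in every library, and the blue triangle, the control library of experiment 2, was the lowest point for each gene.

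Among the α subunits, ITGA6 (chr2:173292082-173371183, hg19) encodes the laminin-binding α6 subunit that pairs with β4 or β1. Its level in experiment 1 was 63.5 FPKM with control vector and 65.3 FPKM with Myc-TRIM40, and in experiment 2 it was 51.2 and 68.1 FPKM. Both Myc-TRIM40 values lay above both control values in FPKM, but the controls differed from each other by 1.24-fold. The edgeR log2 fold change was 0.14 ± 0.21 (SE, adjusted p = 0.925).

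ITGA3 (chr17:48133332-48167849, hg19) encodes α3, the partner of β1 in a receptor for laminin-332. It measured 58.8 FPKM with control vector and 71.1 FPKM with Myc-TRIM40 in experiment 1, and 35.9 and 48.2 FPKM in experiment 2. Within each experiment the Myc-TRIM40 library was higher, by 1.20-fold and 1.33-fold on the scale of FPKM + 1, yet the groups overlapped, because the control of experiment 1 exceeded the Myc-TRIM40 library of experiment 2. The log2 fold change by edgeR was 0.27 ± 0.21 (SE, adjusted p = 0.888).

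ITGAV (chr2:187454790-187545629, hg19) encodes αv, which pairs with several β subunits to bind fibronectin, vitronectin and latent TGF-β. It measured 13.5 and 16.1 FPKM in experiment 1 and 10.5 and 15.4 FPKM in experiment 2, in the order control vector and Myc-TRIM40. The groups did not overlap, and the fitted log2 fold change of 0.32 ± 0.22 (SE, adjusted p = 0.888) was the second highest of the 10 genes. ITGA2 (chr5:52285156-52390609, hg19), the collagen-binding partner of β1, measured 9.03 and 9.55 FPKM in experiment 1 and 4.39 and 4.61 FPKM in experiment 2. For this gene the experiments stood apart and the conditions did not, with a 2.06-fold difference between the controls and a log2 fold change of -0.01 ± 0.21 (SE, adjusted p = 0.998).

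Among the β subunits, ITGB4 (chr17:73717408-73753899, hg19) encodes β4, the hemidesmosomal subunit with a long cytoplasmic tail that binds plectin. It varied most between libraries. In experiment 1 it measured 103.5 FPKM with control vector and 110.5 FPKM with Myc-TRIM40, and in experiment 2 it measured 38.9 and 70.1 FPKM. The control library of experiment 2 lay far below the other 3, so that the control mean of 71.2 FPKM carried an SD of 45.7 (n = 2) against 90.3 ± 28.5 FPKM (SD, n = 2) with Myc-TRIM40. The ratio within an experiment was 1.07-fold in experiment 1 and 1.78-fold in experiment 2, whereas the control libraries differed from each other by 2.66-fold. The log2 fold change by edgeR, 0.39 ± 0.23 (SE, adjusted p = 0.888), was the highest of the 10. It was -0.22 when the control library of experiment 2 was left out, in a fit that did not pair the libraries. That fit set the control of experiment 1 against the Myc-TRIM40 libraries of both experiments, whereas the ratio within experiment 1 was 1.07-fold.

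ITGB1 (chr10:33189246-33247293, hg19) encodes β1, the common partner of α2, α3, α6 and αv. Its levels were 136.0 and 148.0 FPKM in experiment 1 and 131.2 and 171.0 FPKM in experiment 2, again with control vector first. The controls of this gene differed by 1.04-fold, the smallest such difference of the 10, and both Myc-TRIM40 libraries lay above them. The log2 fold change was 0.17 ± 0.19 (SE, adjusted p = 0.900 by edgeR), so the difference did not pass the test. ITGB6 (chr2:160956177-161056824, hg19) encodes the epithelial partner of αv that activates latent TGF-β, and it measured 7.12 and 6.88 FPKM in experiment 1 and 5.65 and 8.0 FPKM in experiment 2. The Myc-TRIM40 library was the lower in the first experiment and the higher in the second.

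The balance of partner subunits differed between the experiments for 3 of the 4 pairs compared. ITGB4 stood at 1.63 times ITGA6 in FPKM with control vector and 1.69 times with Myc-TRIM40 in experiment 1, against 0.759 and 1.03 times in experiment 2. ITGB1 stood at 2.31 and 2.08 times ITGA3 in experiment 1 and at 3.65 and 3.54 times in experiment 2. Against ITGA2 it stood at 15.1 and 15.5 times in experiment 1 and at 29.9 and 37.1 times in experiment 2. ITGB6 stayed between 0.428 and 0.537 times ITGAV in the 4 libraries. For the ratios of ITGB4 to ITGA6, of ITGB1 to ITGA3 and of ITGB1 to ITGA2, the libraries of an experiment were therefore closer to each other than those of a condition.

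CD44 (chr11:35160417-35253949, hg19) measured 96.7 and 89.8 FPKM in experiment 1 and 79.4 and 96.7 FPKM in experiment 2, in the order control vector and Myc-TRIM40. The experiments went opposite ways, by 0.930-fold and 1.21-fold, and the groups overlapped. The edgeR log2 fold change was 0.01 ± 0.20 (SE, 95% interval -0.45 to 0.47, adjusted p = 0.997).

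PXN (chr12:120648242-120703574, hg19) encodes paxillin, a scaffold of focal adhesions. It measured 52.1 and 50.8 FPKM in experiment 1 and 34.1 and 50.3 FPKM in experiment 2, so the control library of experiment 2 stood alone below the other 3. Its antisense neighbour PXN-AS1 overlaps it and had 254 to 490 reads against 8898 to 12194 for PXN, and without knowledge of the strand setting the reads of the overlap cannot be told apart. The fold change of PXN was 0.18 ± 0.23 on the log2 scale (SE, adjusted p = 0.909 by edgeR).

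VCL (chr10:75757872-75879914, hg19) encodes vinculin, which binds talin and actin at both matrix and cell-cell contacts. It measured 22.8 and 20.2 FPKM in experiment 1 and 10.8 and 19.0 FPKM in experiment 2. As for PXN, 1 library was low, the control of experiment 2, and the ratios went opposite ways, 0.889-fold in experiment 1 and 1.70-fold in experiment 2. The fitted log2 fold change was 0.24 ± 0.27 (SE, adjusted p = 0.900 by edgeR). It was -0.23 without that control library, in a fit that again did not pair the libraries.

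Within each experiment, the 10 genes were also counted past a 1.5-fold ratio of FPKM + 1, as a description of single libraries with no replicate check. In experiment 1, 0 of 10 were past it in either direction, against 2.78% of all tested genes higher and 0.659% lower. In experiment 2, ITGB4 and VCL were past it upward and 0 genes downward, against 8.54% of tested genes higher and 2.88% lower. None was past it in both experiments, where the shares over all tested genes were 0.457% higher and 0.0874% lower. The median log2 ratio of the 10 genes was 0.06 in experiment 1 and 0.43 in experiment 2, beside medians of 0.03 and 0.08 over all tested genes. In experiment 2 the ratio lay above 0 for 10 of 10 genes and for 61.7% of tested genes, but on TMM-scaled counts or with ratios centred on the median gene it did so for 9 of 10, ITGA2 being the exception. Both Myc-TRIM40 libraries lay above both controls for 3 of 10 genes, ITGA6, ITGAV and ITGB1, as did 15.2% of tested genes, and below both for 0 of 10, as did 6.48% of tested genes.

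**Figure D2:**
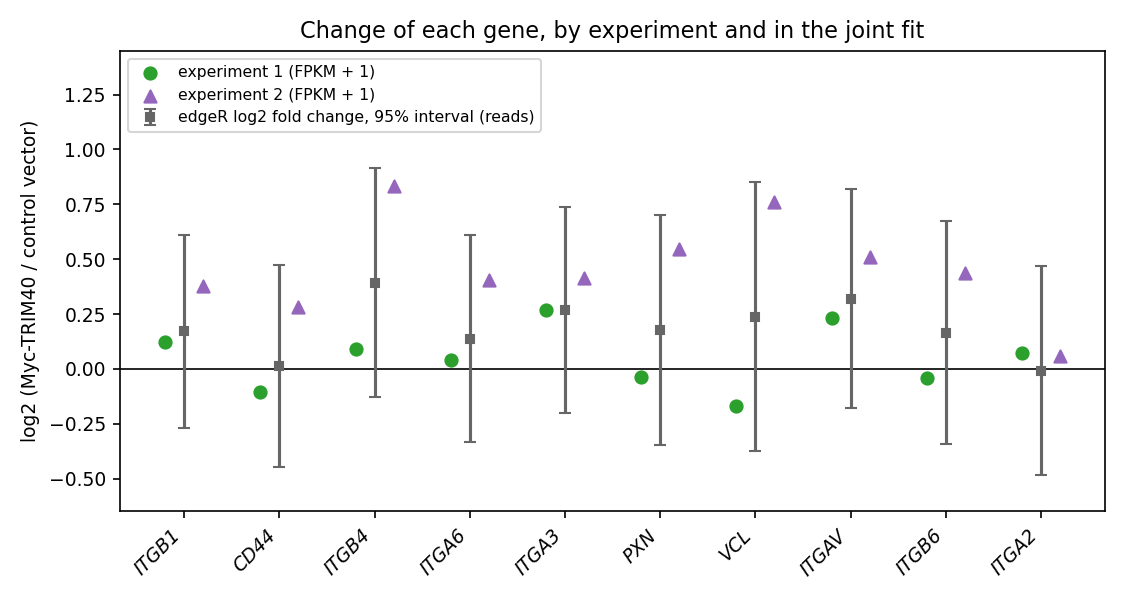
The log2 ratio of Myc-TRIM40 to control vector for each gene, with FPKM + 1 in experiment 1 as green circles and in experiment 2 as purple triangles, and the edgeR log2 fold change of reads with its 95% interval as grey squares and bars. The triangle lies above the circle for all genes but ITGA2, and every interval takes in 0.

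The control libraries also differed from each other at these genes. In FPKM, the control library of experiment 2 was below that of experiment 1 for 10 of 10 genes. On TMM-scaled counts ITGB1 was the exception. The median log2 difference in FPKM + 1 was -0.46, whereas over all tested genes the median was -0.04 and 54.3% were lower. Between the Myc-TRIM40 libraries, 6 of 10 were lower in experiment 2, with a median of -0.04. The difference between controls exceeded the Myc-TRIM40 ratio for 9 of 10 genes in experiment 1 and for 5 of 10 in experiment 2. After ITGB4, the largest differences between controls were those of VCL (2.11-fold), ITGA2 (2.06-fold), ITGA3 (1.64-fold) and PXN (1.52-fold).

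These genes have long transcripts, and transcript length moved with the ratios of experiment 2. When all tested genes were divided into 5 bins of about equal size by length, the median log2 ratio of experiment 2 went from -0.27 in the shortest bin to 0.38 in the longest, of which 93.1% lay above 0. In experiment 1 it stayed between -0.0006 and 0.04. The difference between the controls ran the other way, from 0.34 in the shortest bin to -0.39 in the longest. ITGA2, ITGA3, ITGA6, ITGAV, ITGB4, CD44 and VCL fall in the longest bin, and their median in experiment 2 was 0.42. ITGB1, ITGB6 and PXN fall in the next longest, with a median of 0.44 against 0.22 for that whole bin. Once the trend on length was taken out, a step chosen after seeing the data, the median of the 10 genes in experiment 2 was 0.14, 8 of 10 lay above 0, ITGA2 and CD44 below, and 0 were past 1.5-fold. ITGB4 then stood at 0.50, VCL at 0.45 and PXN at 0.35. With the same trend as an offset in the edgeR fit, 0 of 10 were called and the smallest unadjusted p was 0.120, for CD44 at a log2 fold change of -0.18. What part the library differences behind this trend have in the result was not tested.

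**Figure D3:**
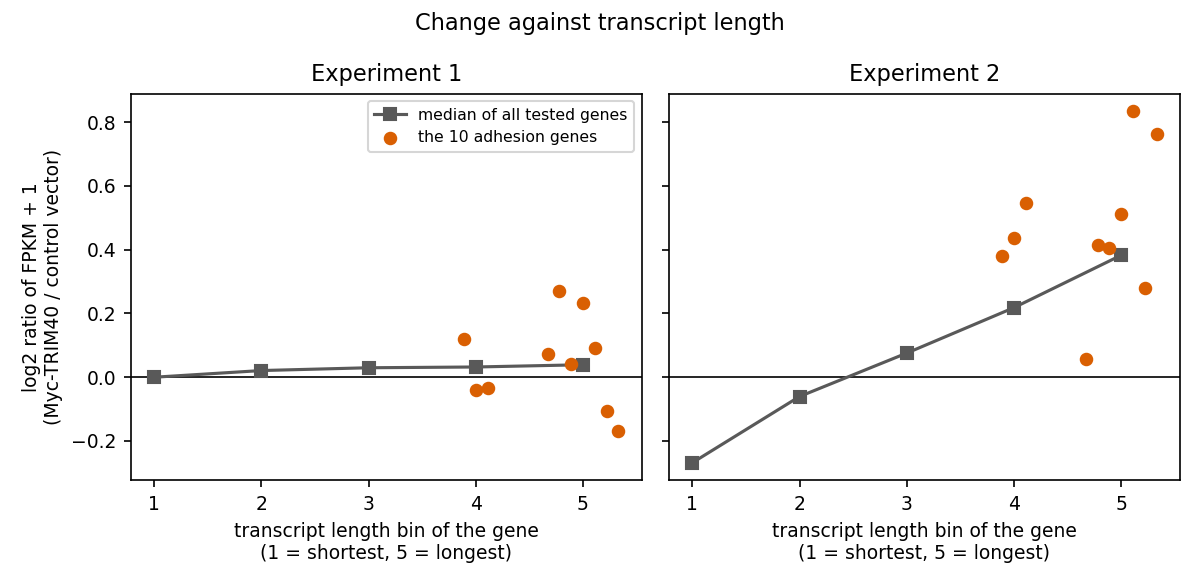
The log2 ratio of FPKM + 1, Myc-TRIM40 to control vector, against the length bin of the gene (1 shortest, 5 longest) in experiment 1 (left) and experiment 2 (right), with the median of all tested genes as grey squares and the 10 genes as orange points spread sideways for legibility. The grey line is nearly flat on the left and climbs from -0.27 to 0.38 on the right, where the 10 genes lie in the 2 longest bins.

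The reads of CD44 went mostly to forms with variable exons. Variants 1, 2 and 3 together took between 88.0% and 92.1% of its reads in the 4 libraries. Variant 3, the epithelial form whose junction is shown above, was the main one, at 59.7% (Wilson 95% interval 59.2 to 60.3) with control vector and 54.9% (54.3 to 55.5) with Myc-TRIM40 in experiment 1, and at 47.2% (46.6 to 47.8) and 45.7% (45.2 to 46.2) in experiment 2. Its share was lower with Myc-TRIM40 in both experiments (-4.80 and -1.504 percentage points), but the controls alone differed by -12.5 points, experiment 2 against experiment 1. These intervals cover counting error only, and reads in exons that the forms share are divided by the counting program.

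Variant 2 took 23.1% and 26.6% of CD44 reads in experiment 1 and 25.3% and 27.5% in experiment 2, in the order control vector and Myc-TRIM40. Variant 1, which carries the most variable exons, took 8.87% and 10.6%, and 15.6% and 16.5%. For both longer forms the Myc-TRIM40 library of each experiment was the higher, and for variant 1 the experiments differed by more than the conditions. Variant 4, the standard form, took 5.34% and 3.40% in experiment 1 and 6.86% and 6.99% in experiment 2, so it had no common direction. The other 4 forms, NM_001001392, NM_001202555, NM_001202556 and NM_001202557, took at most 2.37% each, and the last had 10 and 163 reads in experiment 1 and 8 and 18 in experiment 2. ESRP1 and ESRP2, splicing factors known to favour the epithelial form, had log2 fold changes of -0.02 ± 0.22 and 0.08 ± 0.24 (SE, adjusted p = 0.995 and 0.968 by edgeR).

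**Figure D4:**
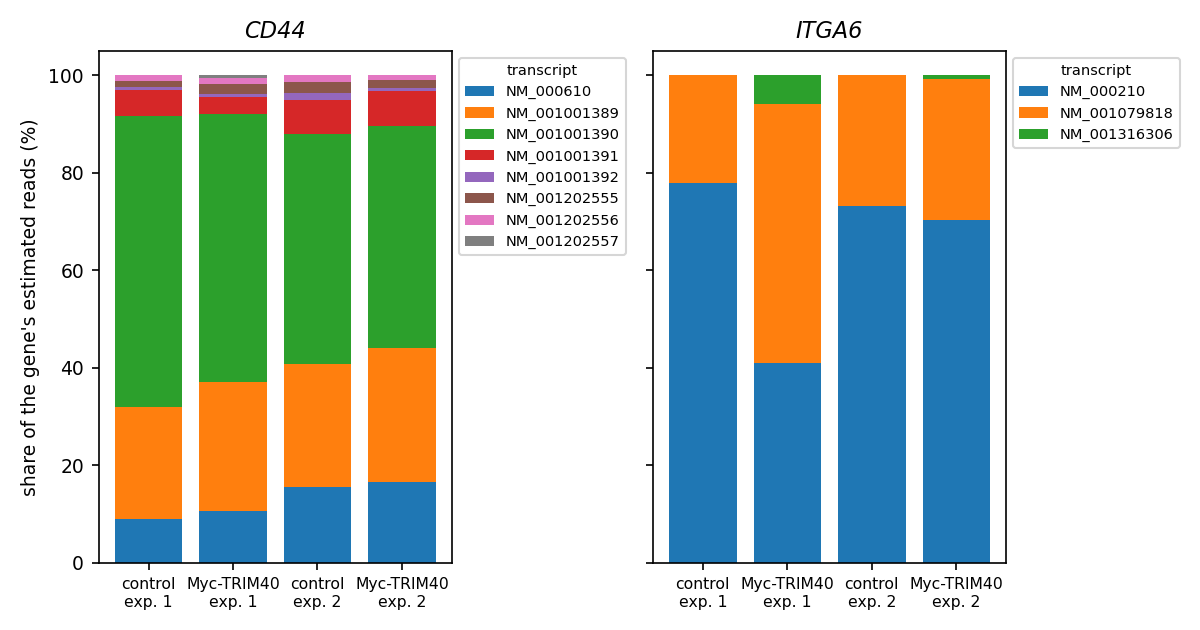
Stacked bars of the share of estimated reads (%) given to each transcript of CD44 (left) and ITGA6 (right) in the 4 libraries. NM_001001390, the epithelial form, is the largest CD44 part in each bar, and the Myc-TRIM40 bar of experiment 1 stands apart for ITGA6, with 41.0% for NM_000210 against 70.2% to 77.8% in the other 3.

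The split of ITGA6 reads stood apart in 1 library, a pattern picked out after its values were seen. The α6A transcript NM_000210 took 77.8% of ITGA6 reads with control vector and 41.0% with Myc-TRIM40 in experiment 1, and 73.1% and 70.2% in experiment 2. The α6B transcript NM_001079818 took 22.1% and 53.1%, and 26.9% and 28.99%. The Myc-TRIM40 library of experiment 1 thus differed from its control by -36.8 points for α6A, whereas that of experiment 2 differed by -2.85 points and the controls by -4.74 points. The remaining transcript, NM_001316306, which has the 130-base exon but another internal exon upstream, had 15 reads with control vector and 1379 with Myc-TRIM40 in the first experiment, and 2 and 202 in the second. It was higher with Myc-TRIM40 in both experiments, at 5.86% and 0.796% of the gene's reads. Its fold change did not pass the test across transcripts, which no transcript passed (unadjusted p = 0.00189, adjusted p = 0.977 by edgeR).

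Of the 41 transcripts of the 10 genes, 36 could be tested and 0 were called by edgeR, among 33773 tested transcripts of which 0% were called. The common dispersion of this fit was 0.645, and the smallest adjusted p by edgeR over all tested transcripts was 0.977. A test that called no transcript at all cannot show that these 36 were unchanged. At an unadjusted p under 0.05 there were 2 of these 36, NM_001316306 and the ITGB6 transcript NM_000888, and 933 over all tested transcripts. NM_000888 took 16.8% and 65.4% of ITGB6 reads in experiment 1 and 25.0% and 39.2% in experiment 2. Estimates for near-identical transcripts were unstable between libraries of the same condition. The coding ITGA2 transcript NM_002203 was given 1426 and 1394 reads in the first experiment, but 0 with control vector and 1709 with Myc-TRIM40 in the second. In that control library 2304 of 2411 ITGA2 reads went to the non-coding NR_073105, which had 0 reads in the other 3. ITGA3 has a single transcript in the tables, and 1 transcript took at least 98.3% of the ITGB1 reads and at least 99.3% of the VCL reads in every library. These 3 genes were thus hardly divided among forms. The gene test used reads summed over all transcripts of a gene, so its totals did not depend on how a gene's own transcripts shared them. The main ITGB4 transcript, NM_001005619, took 70.4% to 80.4%, and the main PXN transcript, NM_002859, 50.2% to 58.8%.

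Around the 10 genes, 88 further adhesion genes were listed by role, 72 of them passed the filter on low counts, and 0 were called in either direction by edgeR. At an unadjusted p under 0.05 there were 7 of 72, of which 4 were matrix ligands, beside 675 of all 14868 tested genes. Of 13 tested matrix ligand genes, 12 had a ratio above 0 in experiment 1 and 12 in experiment 2, and 11 did so in both. LAMA5 was the exception in experiment 1 and COL4A2 in experiment 2. The medians were 0.25 and 0.33 on the log2 scale of FPKM + 1. Of all tested genes, 56.8% lay above 0 in experiment 1 and 61.7% in experiment 2. LAMA3, the α3 chain of laminin-332 bound by α3β1 and α6β4, measured 6.06 FPKM with control vector and 10.2 FPKM with Myc-TRIM40 in the first experiment, and 3.87 and 5.42 FPKM in the second. LAMA3 had the smallest p of all listed genes, with a log2 fold change of 0.92 ± 0.21 (SE, unadjusted p = 0.00233, adjusted p = 0.495 by edgeR). LAMB3, the β3 chain of the same laminin, had a log2 fold change of 0.27 ± 0.22 (SE, adjusted p = 0.888 by edgeR). SPP1, the gene for the αv and CD44 ligand osteopontin, was low throughout, at 1.16 and 2.50 FPKM in experiment 1 and 0.500 and 0.920 FPKM in experiment 2.

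Of the 4 hemidesmosome partners of α6β4, 3 were past 1.5-fold upward in experiment 2 and 0 in experiment 1, beside 8.54% and 2.78% of all tested genes. The ratios of experiment 2 for the listed genes were not corrected for the trend on transcript length, which had a median of 0.38 in the longest bin. DST, whose epithelial product links β4 to keratin, measured 6.46 and 8.18 FPKM in experiment 1 and 2.13 and 5.77 FPKM in experiment 2. COL17A1, the hemidesmosomal collagen, measured 13.8 and 16.6 FPKM and then 7.46 and 13.1 FPKM. Like ITGB4, both were lowest in the control library of experiment 2. CD151, a tetraspanin partner of laminin-binding integrins, was the lower with Myc-TRIM40 in each experiment, at 312.7 and 278.3 FPKM and then 263.3 and 211.7 FPKM, with a log2 fold change of -0.32 ± 0.20 (SE, adjusted p = 0.888 by edgeR).

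Of 38 tested focal adhesion adaptors and kinases, 18 had a ratio above 0 in experiment 1 and 32 in experiment 2, with medians of -0.01 and 0.34, and 11 were past 1.5-fold upward in experiment 2 against 1 in experiment 1, beside 8.54% and 2.78% of all tested genes. TLN1, the gene for talin, which joins integrin tails to vinculin, went the same way as VCL within each experiment, at 32.9 and 30.3 FPKM in experiment 1 and 10.2 and 19.8 FPKM in experiment 2. TNS1, for the actin-binding adaptor tensin, was higher with Myc-TRIM40 in both, at 3.74 and 5.71 FPKM and then 1.55 and 3.45 FPKM, with a log2 fold change of 0.80 ± 0.23 (SE, adjusted p = 0.834 by edgeR). NEDD9, a docking protein of the focal adhesion kinase, measured 8.61 and 12.0 FPKM and then 5.53 and 8.13 FPKM, and TES, for the zyxin-binding protein testin, had log2 ratios of 0.27 and 0.14.

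Among 9 tested hyaluronan and CD44 partners the medians were -0.07 and 0.21. EZR, for ezrin, which ties CD44 to cortical actin, measured 128.4 and 151.9 FPKM in experiment 1 and 121.4 and 138.2 FPKM in experiment 2. NF2, for merlin, had log2 ratios of 0.09 and 0.21, and the hyaluronan synthase gene HAS3, below 1 FPKM throughout, 0.07 and 0.06. Of 19 other integrin subunit genes, 8 passed the filter, with medians of 0.11 and 0.09. ITGAE, for the E-cadherin-binding αE, measured 2.31 and 2.02 FPKM in experiment 1 and 5.30 and 3.01 FPKM in experiment 2 (log2 fold change -0.59 ± 0.25, SE, adjusted p = 0.888 by edgeR), ITGA1 10.2 and 11.2 FPKM and then 4.43 and 7.995 FPKM. ITGB8 had log2 ratios of 0.09 and 0.18.

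**Figure D5:**
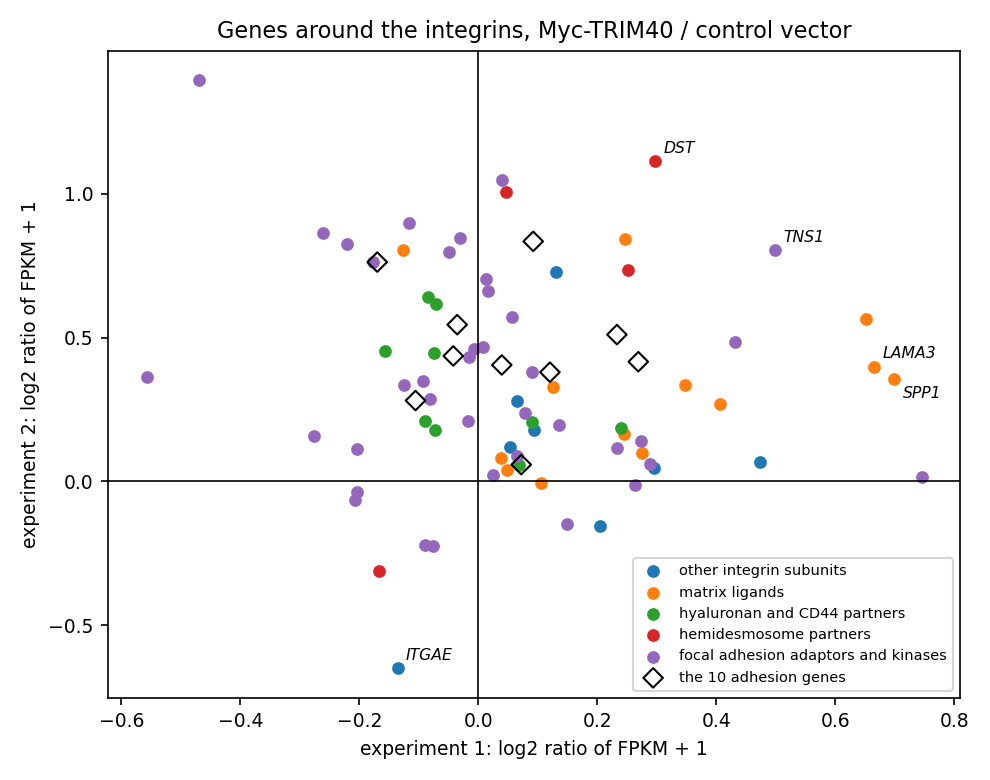
The log2 ratio of FPKM + 1, Myc-TRIM40 to control vector, in experiment 1 (horizontal) against experiment 2 (vertical) for the 72 tested genes of the 5 lists, coloured by list, and for the 10 genes as open diamonds. LAMA3, SPP1 and TNS1 lie to the upper right, and the 10 genes spread upward more than sideways.

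VCL had the largest mean absolute log2 ratio of the 10 genes over both experiments, 0.47. Among 11754 tested genes with a mean of at least 1 FPKM, those whose levels over the 4 libraries were nearest to its pattern were NCAPD3, COLCA1 and E2F7, at Euclidean distances of 0.0317, 0.0359 and 0.0455 on centred log2(FPKM + 1). NCAPD3, for a condensin subunit, measured 46.5, 40.5, 22.6 and 38.0 FPKM in the order control and Myc-TRIM40 of experiment 1, then of experiment 2.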

How the data were processed

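The authors deposited, per RefSeq transcript and library, an estimated count of reads (whole numbers, not normalized), FPKM and, for experiment 2, TPM. The deposited tables also give transcript lengths and hg19 positions. The submitters' processing notes name HISAT2 2.1.0, StringTie 1.3.4d and hg19. The kit was TruSeq Stranded mRNA, and whether counting used strand is not given in the sources used here. Transcripts were summed to genes. The test was edgeR 4.0.16 in R 4.3.3 (glmQLFit and glmQLFTest) on 14868 genes kept by filterByExpr, with TMM scaling, Benjamini-Hochberg adjustment and the experiment as a block. It was also run on simulated counts, which held no difference between experiments and no trend on transcript length, so that run does not cover these features of the data. Libraries were paired by the replicate number of their labels, which the tables share, and paired libraries deviated together (correlation 0.449). With 1 residual degree of freedom, a common dispersion of 0.0484 and a prior of 7.44 degrees of freedom carried the fit, and p-values measure only the spread between these libraries. The depth was 60954602 to 67424698 reads per library, with 2 libraries per condition. Ratios used FPKM + 1, with TPM of experiment 1 computed here from the deposited FPKM. Calculations used Python 3.11.15 and pandas 2.3.3.

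Named genes were the 10 genes, each CD44 transcript with at least 10 reads in some library, TRIM40, per list the genes called and the 3 with the largest smaller ratio in a common direction, and the 3 genes nearest to VCL in pattern. The other transcripts, LAMB3, ESRP1, ESRP2, TLN1 and the marker genes named were chosen after their values were seen. The genes and lists were chosen with earlier results of these data known. Alternatives were no block, DESeq2 1.42.0, limma 3.58.1 on log2(FPKM + 1), upper-quartile scaling, no filter, another pseudocount, TPM, TMM-scaled counts, median-centred ratios, a 2-fold threshold and each library or experiment left out. The correction for transcript length was added after the data were seen. Some results that the rule for named genes covers are not reported here. Microarray data were not analysed here.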

Additional observations from a re-analysis of the deposited data

How the results depend on the processing

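No setting called any of the 10 genes at an adjusted p of 0.05, and of 198 values recomputed 179 kept their direction and side of the threshold. The edgeR log2 fold change of ITGA2, -0.01, was 0.0078 with no replicate block and 0.065 with limma, and that of CD44, 0.01, was -0.013 with DESeq2. The fit with no replicate block changed no call of the 10 genes, and it called 0 of all tested genes against 9 with the block. With the length trend as an offset, ITGA6 stood at -0.086 and CD44 at -0.18. Leaving out each library in turn, without a block and with the lone library assumed to vary like the other group, gave ranges of -0.60 to 0.50 for ITGA2, -0.045 to 0.57 for ITGA3, -0.22 to 1.05 for ITGB4, -0.056 to 0.071 for CD44, -0.059 to 0.40 for PXN and -0.23 to 0.70 for VCL. The lowest values of ITGB4, CD44, PXN and VCL came without control replicate 2 and those of ITGA2 and ITGA3 without TRIM40 replicate 1, and ITGA6, ITGAV, ITGB1 and ITGB6 stayed above 0. In experiment 2 the number of genes at least 1.5-fold higher was 8 on TPM, where the median of all tested genes was 0.27 instead of 0.08, 0 with the length trend removed and 0 at a threshold of 2-fold. The count in both experiments was 2 when replicate 1 was left out and 0 without replicate 2. The median of the 10 genes in experiment 2 was 0.14 with the length trend removed. Over all tested genes DESeq2 called 45 higher and 9 lower against 6 and 3 by edgeR, limma 3 and 0, the fit with no filter 0 and 0, and the length offset 1 and 0. Without control replicate 1, ITGB4 had an unadjusted p of 0.0206 (adjusted p = 0.373 by edgeR). The cause of these changes was not tested.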
